A study of Danio rerio with 9 samples.

Results

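The genes described here encode the adhesive glycoproteins of the extracellular matrix (fibronectins, laminins, nidogens, perlecan and agrin) and the integrins, the cell-surface receptors that bind them, in the atrioventricular valve of zebrafish (Danio rerio). Members were chosen by gene symbol in the deposited table, as protein-coding genes, and kept where at least 3 libraries had a value of at least 10. Of 21692 genes in the table, 52 had a matching symbol and 49 were kept, among 17891 genes that met the same filter. The 49 comprised 2 fibronectin genes, 11 laminin chains, 6 genes for nidogens, perlecan and agrin, and 30 integrin genes, among them the integrin-related gene itgbl1. The member nearest to the limit among those kept was the nidogen nid2b, with values of 35, 10 and 16 in 3 libraries and at most 3 in the others. The 3 left out were lamb4, with 18 and 79 in 2 libraries and at most 9 elsewhere, itga2.1, with 53 and 14 in 2 libraries, and itgb3a, with 25 in 1 library.

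Laminins, each built from an alpha, a beta and a gamma chain, form sheets in basement membranes, the thin matrix layers under endothelium and around muscle cells. Nidogen and perlecan link these sheets to collagen IV, and agrin is another heparan sulfate proteoglycan of the same layers. Fibronectin is a secreted dimer that cells assemble into fibrils on their surface, typically in tissue that is being built or repaired. Integrins are pairs of an alpha and a beta chain, and the pair decides which matrix protein is bound and connects it to the actin cytoskeleton. In a heart valve, endothelium on its basement membrane covers a core of matrix-producing interstitial cells.

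Valve tissue was cut with a laser from frozen heart sections, in 3 groups of 3 libraries. Uninjured fish formed the first group. In the others, hearts were collected either 48 h or 21 d after valve cells had been ablated, for which fish had been kept for 6 h in 2.5 mM metronidazole, a drug that kills cells able to convert it into a toxic product. Each library is labelled as coming from 2 hearts. Strain, transgene, the promoter that marks the ablated cells, sex and age are not in the labels. Drug exposure of uninjured fish is not stated, nor is it stated whether replicate libraries came from different animals. The p-values therefore measure the spread between these libraries, which may be technical.

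All values are normalised read counts per gene, that is, reads divided by a scaling factor of the library, with column totals between 15383031 and 21616553. From the spacing of low values, a value of 1 stood for 0.851 to 1.398 reads, so values under about 10 rest on few reads. Gene length is not part of these values, so levels are compared between groups and not between genes. No listed marker of valve, heart or blood cells that was found among the deposited genes was at 0 in all libraries. Some listed markers were not found there and are not covered. Of 15 lymphocyte markers listed 11 were found, and of 24 valve-interstitial markers 20. Summed values of 20 valve-interstitial markers ran from 197047 to 240130 in uninjured libraries, from 78350 to 97809 at 48 h and from 166166 to 189437 at 21 d. Those of 25 heart-muscle markers ran from 1202360 to 1416960 in uninjured libraries, from 686988 to 857483 at 48 h and from 1170211 to 1351896 at 21 d. Those of 25 endothelial markers ran from 30826 to 37554 in uninjured libraries, from 38021 to 60113 at 48 h and from 29995 to 32362 at 21 d. These sums are over all listed genes in the table, of which those that met the filter were tested. The part of these shifts in the results below was not tested. In bulk tissue, fewer cells of a type and less RNA per cell cannot be told apart.

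At 48 h, the comparison with uninjured tissue showed higher fibronectin, higher integrin chains itga6a, itgb2 and itgb7, and lower values of a set of basement-membrane and matrix-receptor genes. Of 49 members, 6 rose (fn1a, fn1b, itga6a, itgb2 and itgb7 among them) and 7 fell (lama5, lamc3, nid1a, hspg2, itgb1a, itga5 and itga1), 13 or 26.5% in all, by limma's moderated test with an adjusted p under 0.05 over all tested genes. Among all 17891 genes tested, 10.8% were called, 4.44% higher and 6.33% lower. The members' median log2 fold change was -0.14, against 0.01 over all genes tested. With libraries scaled to equal column totals, the median over all genes moved from 0.01 to 0.28 and that of the members from -0.14 to 0.14. Under that scaling 6 members rose and 4 fell, the calls of lama5, hspg2 and itgb1a being lost, while 1345 of all genes rose and 652 fell, where 794 rose and 1133 fell with the deposited scaling. Without a mean-variance trend in the model, 5 members and 684 of all genes were called. The members shared with the 13 were itga1, itga6a, itgb2 and lamc3. The other was itga2.2, whose call is not read as evidence, as explained below.

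**Figure D1:**
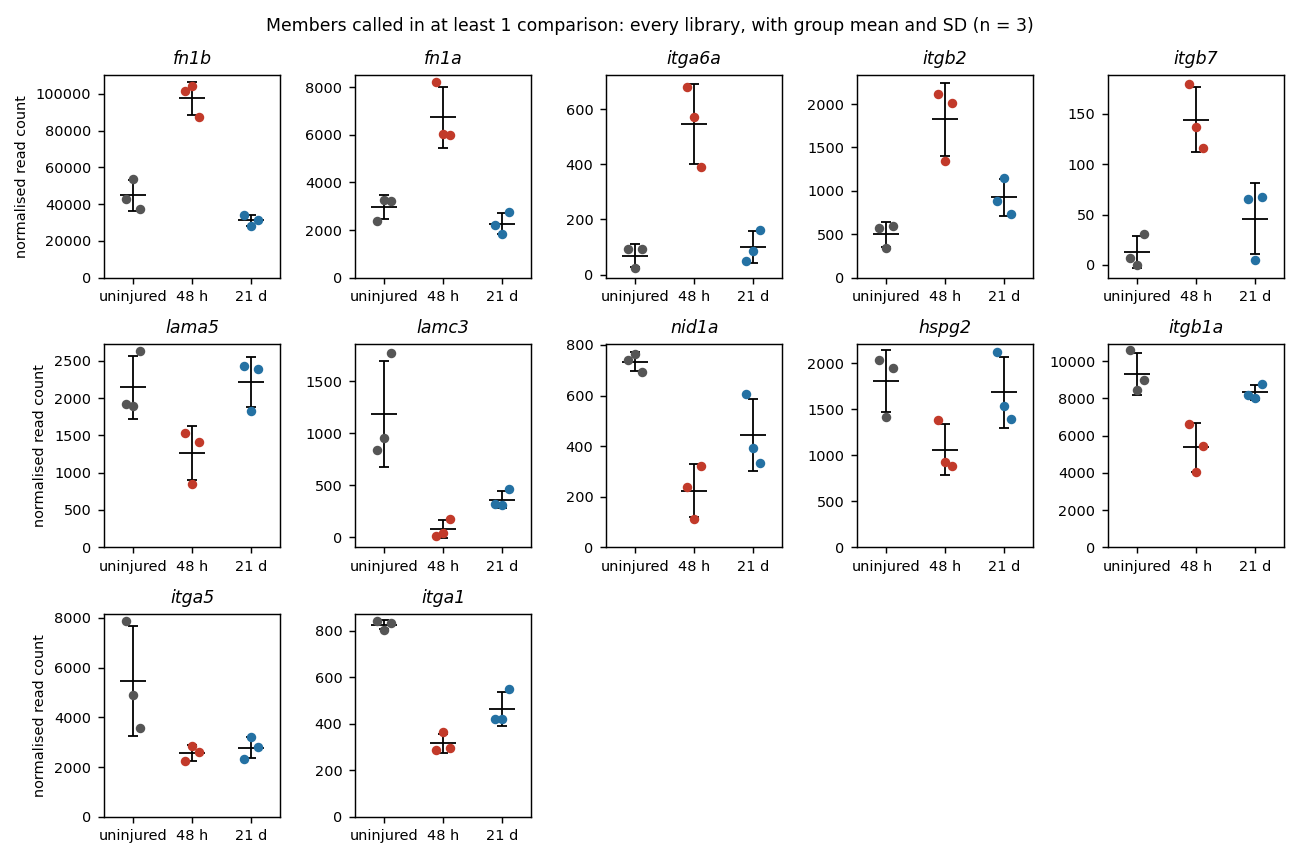
Normalised read count (linear axes) of 12 members called in at least 1 comparison, in each of the 9 libraries, with the group mean and SD (n = 3). The first 5 panels show genes that were higher at 48 h than in uninjured tissue, and the other 7 show genes that were lower.

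Both fibronectin genes rose at 48 h by about the same factor and were lower again at 21 d. The gene fn1b (ENSDARG00000006526) had 43081, 53913 and 37421 normalised counts in uninjured libraries, 101381, 104151 and 87220 at 48 h, and 34237, 28069 and 31552 at 21 d. All 48 h libraries lay above all others, and all 21 d libraries lay below all uninjured ones. Its mean was 97584 ± 9082 at 48 h and 44805 ± 8380 in uninjured tissue (SD, n = 3 each), a 2.2-fold rise on the log2(value + 1) scale on which every fold change here was fitted (log2 fold change 1.14, SE 0.14, limma adjusted p = 6.1e-06).

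Its paralogue fn1a (ENSDARG00000019815) had 2378, 3267 and 3224 in uninjured libraries, 8212, 6015 and 5993 at 48 h, and 2195, 1855 and 2741 at 21 d. Its 48 h libraries stood apart from the rest, and its uninjured and 21 d libraries overlapped. It rose 2.28-fold at 48 h (log2 fold change 1.19, SE 0.20, limma adjusted p = 2.8e-04). Without a mean-variance trend, the limma adjusted p was 0.0527 for fn1b and 0.0666 for fn1a, and under the other 19 alternatives both calls held. Compared with 48 h, at 21 d fn1b fell by 1.64 (SE 0.14, limma adjusted p = 3.3e-08) and fn1a fell by 1.58 (SE 0.20, limma adjusted p = 1.0e-05) on the log2 scale, and these calls held under all 20 alternatives.

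Among laminin gamma chains, lamc3 fell at 48 h and lamc1 did not pass. The chain lamc1 (ENSDARG00000036279), the gamma chain of most laminins, had 4172, 3819 and 3756 in uninjured libraries, 4956, 2559 and 3091 at 48 h, and 2969, 2942 and 2900 at 21 d. The 48 h libraries spread across the range of both other groups, and the 21 d libraries lay below the uninjured ones without passing the test. At 48 h the log2 fold change was -0.20 (SE 0.21, limma adjusted p = 0.62).

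The chain lamc3 (ENSDARG00000093572) had 837, 954 and 1770 in uninjured libraries, 13, 43 and 176 at 48 h, and 314, 308 and 458 at 21 d. The 3 groups did not overlap, with the 21 d libraries between the others. It fell by 4.56 on the log2 scale at 48 h (SE 0.74, limma adjusted p = 0.00232), a call that held under all 20 alternatives. At 21 d it was 2.89 higher than at 48 h (SE 0.74, limma adjusted p = 0.032) and had a log2 fold change of -1.66 against uninjured tissue that did not pass (limma adjusted p = 0.407). With only the uninjured and 21 d groups in the model, that last comparison passed (limma adjusted p = 0.00181). The rise at 21 d over 48 h was lost without 48 h library 2 (0.16), without 21 d library 1 (0.0895), 2 (0.0882) or 3 (0.0971), with equal column totals (0.0507), quantile normalization (0.0622), no filter (0.0529) or array weights (0.0769), and without a mean-variance trend (0.129).

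Among laminin alpha chains, lama5 (ENSDARG00000058543), a chain of mature vascular and epithelial basement membranes, had 1916, 1888 and 2636 in uninjured libraries, 1534, 850 and 1411 at 48 h, and 2431, 1826 and 2392 at 21 d. The 48 h libraries lay below all others, and the other groups overlapped. It fell by 0.79 on the log2 scale at 48 h (SE 0.24, limma adjusted p = 0.0317) and was 0.84 higher at 21 d than at 48 h (SE 0.24, limma adjusted p = 0.0235). The fall was lost without uninjured library 2 (0.0512) or 3 (0.157), without 48 h library 2 (0.194), with equal column totals (0.226), with quantile normalization (0.11) and with only the uninjured and 48 h groups in the model (0.0516). The later rise was lost without 48 h library 2 (0.154), without 21 d library 1 (0.105) or 3 (0.0953) and with equal column totals (0.163). Without a mean-variance trend neither the fall (0.226) nor the later rise (0.213) was called.

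The endothelial laminin chain lama4 (ENSDARG00000020785) had 2183, 1989 and 1676 in uninjured libraries, 2071, 1738 and 1501 at 48 h, and 1582, 1255 and 1761 at 21 d. The groups overlapped, and the log2 fold change at 48 h was -0.14 (SE 0.22, limma adjusted p = 0.754). The chains lama1, prominent in embryonic basement membranes, and lama2, the alpha chain of muscle laminin, had at most 91 and 35 normalised counts in any library and did not pass.

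The 4 tested laminin beta chains passed in none of the 3 comparisons by limma, and lamb2l at 21 d against uninjured tissue was the only one with an unadjusted p under 0.05 (limma adjusted p = 0.379). The vascular and neuromuscular chain lamb2 averaged 4388 ± 1023 at 48 h and 5481 ± 698 in uninjured tissue, and 5586 ± 729 at 21 d (SD, n = 3 each), with a log2 fold change at 48 h of -0.34 (SE 0.19, limma adjusted p = 0.3). The widely used chain lamb1b averaged 2123 ± 430 at 48 h and 1798 ± 518 in uninjured tissue (log2 fold change 0.27, limma adjusted p = 0.564). Its paralogue lamb1a (ENSDARG00000101209) had 319, 458 and 521 in uninjured libraries, 501, 291 and 496 at 48 h, and 215, 388 and 249 at 21 d, with overlapping groups. The groups of lamb2l, listed as a lamb2-like gene, also overlapped at values of 0 to 127.

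Of the 6 linker and proteoglycan genes, nid1a and hspg2 fell at 48 h. The nidogen nid1a (ENSDARG00000068710) had 741, 766 and 692 in uninjured libraries, 240, 112 and 320 at 48 h, and 607, 392 and 334 at 21 d. The 3 groups did not overlap, and the 21 d libraries lay between the others. It fell by 1.83 on the log2 scale at 48 h (SE 0.37, limma adjusted p = 0.0015), a call lost without a mean-variance trend (0.0651). At 21 d it was 1.06 above 48 h (SE 0.37, limma adjusted p = 0.0701), which passed without 48 h library 3 (0.031).

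Its paralogue nid1b (ENSDARG00000103129) had 3240, 2066 and 2308 in uninjured libraries, 2962, 1913 and 1735 at 48 h, and 1614, 1625 and 2042 at 21 d. Its groups overlapped at 48 h, where the log2 fold change was -0.22 (SE 0.23, limma adjusted p = 0.634). The nidogen nid2a averaged 274 ± 77.2 at 48 h and 395 ± 125 in uninjured tissue, and 186 ± 13.1 at 21 d (SD, n = 3 each), and none of its comparisons passed.

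The perlecan gene hspg2 (ENSDARG00000076564) had 2041, 1419 and 1954 in uninjured libraries, 1382, 922 and 879 at 48 h, and 2120, 1541 and 1391 at 21 d. Its highest 48 h library was only slightly below its lowest uninjured one. It fell by 0.78 on the log2 scale (SE 0.24, limma adjusted p = 0.0379). This call was lost without uninjured library 1 (0.142) or 3 (0.125), without 48 h library 2 (0.125) or 3 (0.138), with equal column totals (0.231), with quantile normalization (0.0918) and with only the uninjured and 48 h groups in the model (0.0518). The fall was also not called without a mean-variance trend (0.222). Agrin, agrn (ENSDARG00000079388), had 1722, 1955 and 2143 in uninjured libraries, 2246, 1690 and 2182 at 48 h, and 1655, 1594 and 1551 at 21 d. At 48 h it overlapped with uninjured tissue (log2 fold change 0.07, SE 0.20, limma adjusted p = 0.893).

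Among integrins, the common beta1 chain itgb1a (ENSDARG00000071863), the partner of most matrix-binding alpha chains, had 10587, 8423 and 8969 in uninjured libraries, 6647, 4023 and 5442 at 48 h, and 8205, 8016 and 8786 at 21 d. All 48 h libraries were below all others. It fell by 0.82 on the log2 scale at 48 h (SE 0.18, limma adjusted p = 0.00335) and was 0.66 higher at 21 d than at 48 h (SE 0.18, limma adjusted p = 0.0183). With equal column totals the limma adjusted p at 48 h was 0.0852 and with quantile normalization 0.1. The later rise was lost without 48 h library 2 (0.129) and without 21 d library 1 (0.0582) or 3 (0.0758), and under these scalings (0.212 and 0.206). Without a mean-variance trend neither the fall (0.147) nor the later rise (0.24) was called.

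The paralogue itgb1b (ENSDARG00000104484) had 2205, 1436 and 2418 in uninjured libraries, 2620, 1721 and 1899 at 48 h, and 2514, 1747 and 1541 at 21 d. Its groups overlapped throughout (log2 fold change at 48 h 0.05, SE 0.24, limma adjusted p = 0.931). A further beta1 gene, itgb1b.2, had 51, 381 and 301 in uninjured libraries, 36, 0 and 44 at 48 h, and 163, 65 and 165 at 21 d. Its log2 fold change of -3.94 at 48 h narrowly missed the threshold (SE 1.24, limma adjusted p = 0.0525), and it passed under 8 alternatives, 3 of which left out a library: uninjured 1 (0.0317), 48 h 1 (0.0389) and 48 h 3 (0.0205). It also passed with quantile normalization (0.0278), a pseudocount of 5 (0.016), no filter (0.0453), array weights (0.0402) and a replicate block (0.04). The gene itgb1b.1 had at most 98 in any library, with log2 fold changes of -0.83 at 48 h and -3.65 at 21 d against uninjured tissue that did not pass. Whether the counting split reads between itgb1b, itgb1b.1 and itgb1b.2 was not tested.

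Among collagen-binding alpha chains, itga1 (ENSDARG00000074316), whose mammalian product with beta1 binds collagen IV, had 841, 805 and 833 in uninjured libraries, 287, 364 and 297 at 48 h, and 421, 421 and 548 at 21 d. The 3 groups did not overlap. It fell by 1.39 on the log2 scale at 48 h (SE 0.29, limma adjusted p = 0.00184), which held under all 20 alternatives. At 21 d the log2 fold change against uninjured tissue was -0.84 (SE 0.29, limma adjusted p = 0.178).

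The other 5 tested collagen-binding chains were weak. The gene itga2.2 had 36, 39 and 19 at 48 h, against 2, 0 and 0 in uninjured libraries, and was listed at 0 in every 21 d library, so it passed the filter on low values through the 48 h group alone. Without that group itgb6, itgbl1 and nid2b would not have met the filter either. In the main fit itga2.2 passed neither at 48 h against uninjured tissue nor between 21 d and 48 h. As its 48 h values alone brought it into the test, its p-values against that group are not read as evidence. This holds also for the alternatives under which it passed. The related itga2.3 had 112, 80 and 157 at 48 h, against 39, 65 and 42 in uninjured libraries, without overlap and without passing (log2 fold change 1.22, SE 0.84, limma adjusted p = 0.414). Groups of itga10, itga11a and itga11b overlapped in the same comparison.

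Among laminin-binding chains, itga6a (ENSDARG00000042282) had 91, 22 and 93 in uninjured libraries, 679, 570 and 390 at 48 h, and 49, 87 and 162 at 21 d. Every 48 h library was above every other library. It rose 9.14-fold at 48 h (log2 fold change 3.19, SE 0.59, limma adjusted p = 6.8e-04), a call that held under all 20 alternatives. At 21 d it fell by 2.58 on the log2 scale compared with 48 h (SE 0.59, limma adjusted p = 0.00559). The call of that fall was lost without a mean-variance trend (0.0946).

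The paralogue itga6b had 504, 478 and 338 at 48 h, against 670, 658 and 574 in uninjured libraries, lower in every library but not past the threshold (log2 fold change -0.54, SE 0.28, limma adjusted p = 0.256). Beta4, itgb4, which in mammals pairs with alpha6 and anchors epithelial cells to laminin, had 980, 725 and 449 at 48 h, against 1285, 762 and 2167 in uninjured libraries. Its log2 fold change was -0.91 (SE 0.33, limma adjusted p = 0.0923), and it passed without uninjured library 2 (0.0136), without 48 h library 1 (0.0364) and with array weights (0.0415). The chain itga3b had overlapping groups (log2 fold change 0.17, limma adjusted p = 0.79).

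Among chains of integrins that recognise the RGD tripeptide of fibronectin and related ligands, itga5 (ENSDARG00000006353), whose pair with beta1 is the main fibronectin receptor, had 7887, 4901 and 3571 in uninjured libraries, 2233, 2861 and 2586 at 48 h, and 2328, 3206 and 2816 at 21 d. All uninjured libraries lay above all others, and the 48 h and 21 d groups overlapped. It fell by 1.02 on the log2 scale at 48 h (SE 0.23, limma adjusted p = 0.00475), while both fibronectin genes were higher. Uninjured library 1 was far above its group, and without it the fall was 0.72 on the log2 scale with a limma adjusted p of 0.0513. The fall was also not called without a mean-variance trend (0.155).

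At 21 d the log2 fold change of itga5 against uninjured tissue was -0.90 (SE 0.23, limma adjusted p = 0.0502), the smallest adjusted p of any member in that comparison. It passed without uninjured library 3 (0.0156) or 48 h library 1 (0.0441), with no filter (0.0198) and with a pseudocount of 5 (0.0338), while over all 20 alternatives the adjusted p ran from 0.0156 to 0.482.

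The alphav chain itgav (ENSDARG00000006314), the partner of several beta chains, had 1430, 1075 and 1145 in uninjured libraries, 1560, 1085 and 1220 at 48 h, and 1386, 907 and 1382 at 21 d. Its log2 fold change at 48 h was 0.08 (SE 0.24, limma adjusted p = 0.897). The alphav partners itgb5, itgb6 and itgb8 had overlapping groups, with at most 355, 32 and 44 in any library. The chain itga8, a partner of beta1 found on smooth muscle and fibroblasts in mammals, had 24, 0 and 48 at 48 h, against 144, 129 and 77 in uninjured libraries, without passing (limma adjusted p = 0.179).

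The chains of the thrombocyte fibrinogen receptor, itga2b and itgb3b, did not pass either. The gene itga2b had 441, 1244 and 694 at 48 h, against 566, 428 and 668 in uninjured libraries, and the groups overlapped. The gene itgb3b had 591, 802 and 554 at 48 h, against 294, 331 and 560 in uninjured libraries, with a slight overlap. Of 11 other thrombocyte genes tested, 2 rose and 2 fell at 48 h, where 4.44% of all genes tested rose and 6.33% fell. The summed values of these thrombocyte genes ran from 13752 to 18009 at 48 h, against 18910 to 20919 in uninjured libraries.

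The leukocyte integrin chains itgb2 and itgb7 rose at 48 h together with macrophage and neutrophil markers. The beta2 chain itgb2 (ENSDARG00000016939), shared by the integrins of myeloid cells and lymphocytes, had 577, 337 and 590 in uninjured libraries, 2116, 1341 and 2013 at 48 h, and 883, 1153 and 738 at 21 d. The 3 groups did not overlap. It rose 3.67-fold at 48 h (log2 fold change 1.88, SE 0.28, limma adjusted p = 4.5e-05), which held under all 20 alternatives. Compared with 48 h, at 21 d it fell by 0.97 on the log2 scale (SE 0.28, limma adjusted p = 0.024), a call lost without 48 h library 1 (0.0865) or 3 (0.0987) and without 21 d library 1 (0.0806) or 3 (0.121). This fall was also not called without a mean-variance trend (0.187). Against uninjured tissue the log2 fold change at 21 d was 0.90 (SE 0.28, limma adjusted p = 0.118).

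The beta7 chain itgb7 (ENSDARG00000044318), a lymphocyte homing chain in mammals, had 7, 0 and 31 in uninjured libraries, 180, 137 and 116 at 48 h, and 65, 5 and 67 at 21 d. Its 48 h libraries lay above all others. The log2 fold change was 4.49 (SE 1.38, limma adjusted p = 0.0362), and 3.51 with a pseudocount of 5. The call was lost without uninjured library 1 (0.0529) or 2 (0.124), without any single 48 h library (0.117, 0.0947 and 0.0936 for libraries 1, 2 and 3) and without 21 d library 3 (0.0501). The rise was also not called without a mean-variance trend (0.137).

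The alpha chains of leukocytes did not pass. The chain itga4 (ENSDARG00000103056), which binds VCAM1 and fibronectin, had 11, 32 and 80 in uninjured libraries, 123, 25 and 36 at 48 h, and 139, 178 and 66 at 21 d. The gene itgae.1 had 310, 212 and 463 at 48 h, against 193, 140 and 155 in uninjured libraries (log2 fold change 0.95, SE 0.40, limma adjusted p = 0.137), and 288, 415 and 568 at 21 d. The gene listed as itgam had 442, 95 and 421 at 48 h, against 506, 518 and 460 in uninjured libraries, lower in every library without passing, whereas itgb2, whose mammalian product pairs with that of ITGAM, was higher in every library. The gene itgae.2 had 215, 190 and 234 at 48 h, against 160, 62 and 149 in uninjured libraries, again without overlap (limma adjusted p = 0.316), and itga9, which pairs with beta1, overlapped throughout. The integrin-like gene itgbl1, which lacks the membrane-spanning part of an integrin chain, had at most 40 in any library and did not pass.

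Of 25 macrophage markers, 21 rose at 48 h, where 4.44% of all genes tested rose. The macrophage markers had summed values of 20946 to 29760 at 48 h, against 6405 to 7256 in uninjured libraries. Of 13 neutrophil markers tested, 5 rose, with sums over 14 of 8962 to 9358 at 48 h, against 4150 to 6791 in uninjured libraries. Of 8 lymphocyte markers tested, 1 was called higher, nkl.2. It averaged 153 ± 42.6 at 48 h, 0.33 ± 0.58 in uninjured tissue and 1.0 ± 1.7 at 21 d (SD). As its 48 h values alone brought nkl.2 into the test, its call is not read as evidence. The lymphocyte sums, which include nkl.2, were 406 to 431 at 48 h, against 174 to 240 in uninjured libraries. Of the 11 lymphocyte markers in the table, 10 were at 0 in at least 1 library. At 21 d the macrophage sums were 11345 to 15139, and the neutrophil sums 3285 to 5189. Whether the share of leukocytes sets the values of itgb2 and itgb7 was not tested.

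**Figure D2:**
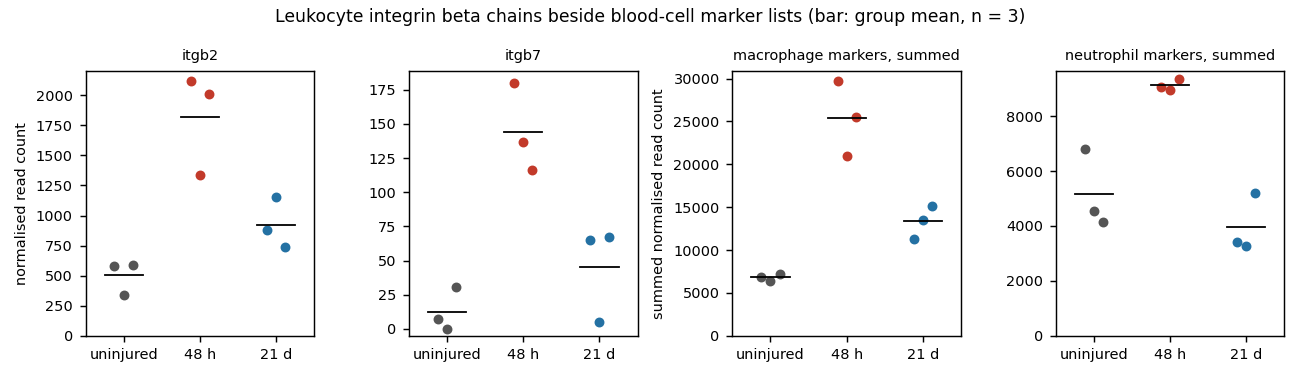
Normalised read count of itgb2 and itgb7, and the summed normalised read count of 25 macrophage and 14 neutrophil markers, in each of the 9 libraries (bars are group means, n = 3). All 4 panels are highest at 48 h, and the 21 d libraries of itgb2 and of the macrophage sum lie between the other groups.

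The 3 comparisons share libraries, so the members' fold changes in them are not independent. Between 21 d and uninjured tissue, 0 of 49 members passed by limma, where 1.45% of all genes tested did. At an unadjusted p under 0.05 there were 12 members. The share of all genes at that unadjusted cut was not counted, so the 12 are not read as a result about the members. The members' median log2 fold change was -0.18, against 0.02 over all genes tested, and 32 of 49 were below 0. The median was -0.40 without 21 d library 3. The number of all genes called here, 260, was 107 to 172 without any single uninjured or 21 d library. The member fn1b, at 31286 ± 3093 at 21 d against 44805 ± 8380 in uninjured tissue (SD, n = 3 each), had a log2 fold change of -0.51 (SE 0.14, limma adjusted p = 0.084). It passed with no filter (0.0287) and with only these groups in the model (0.0486).

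Between 21 d and 48 h, 3 members rose (itgb1a, lama5 and lamc3) and 5 fell (fn1a, fn1b, itga6a and itgb2 among them), 8 or 16.3% in all. Among all genes tested 9.88% were called, 5.48% higher and 4.4% lower. With equal column totals the 5 falls were called and no rise was, while 607 of all genes rose and 1281 fell, against 980 and 788 with the deposited scaling. The number of members called was 4 without 48 h library 2, 3 without 21 d library 1 and 4 without 21 d library 3.

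**Figure D3:**
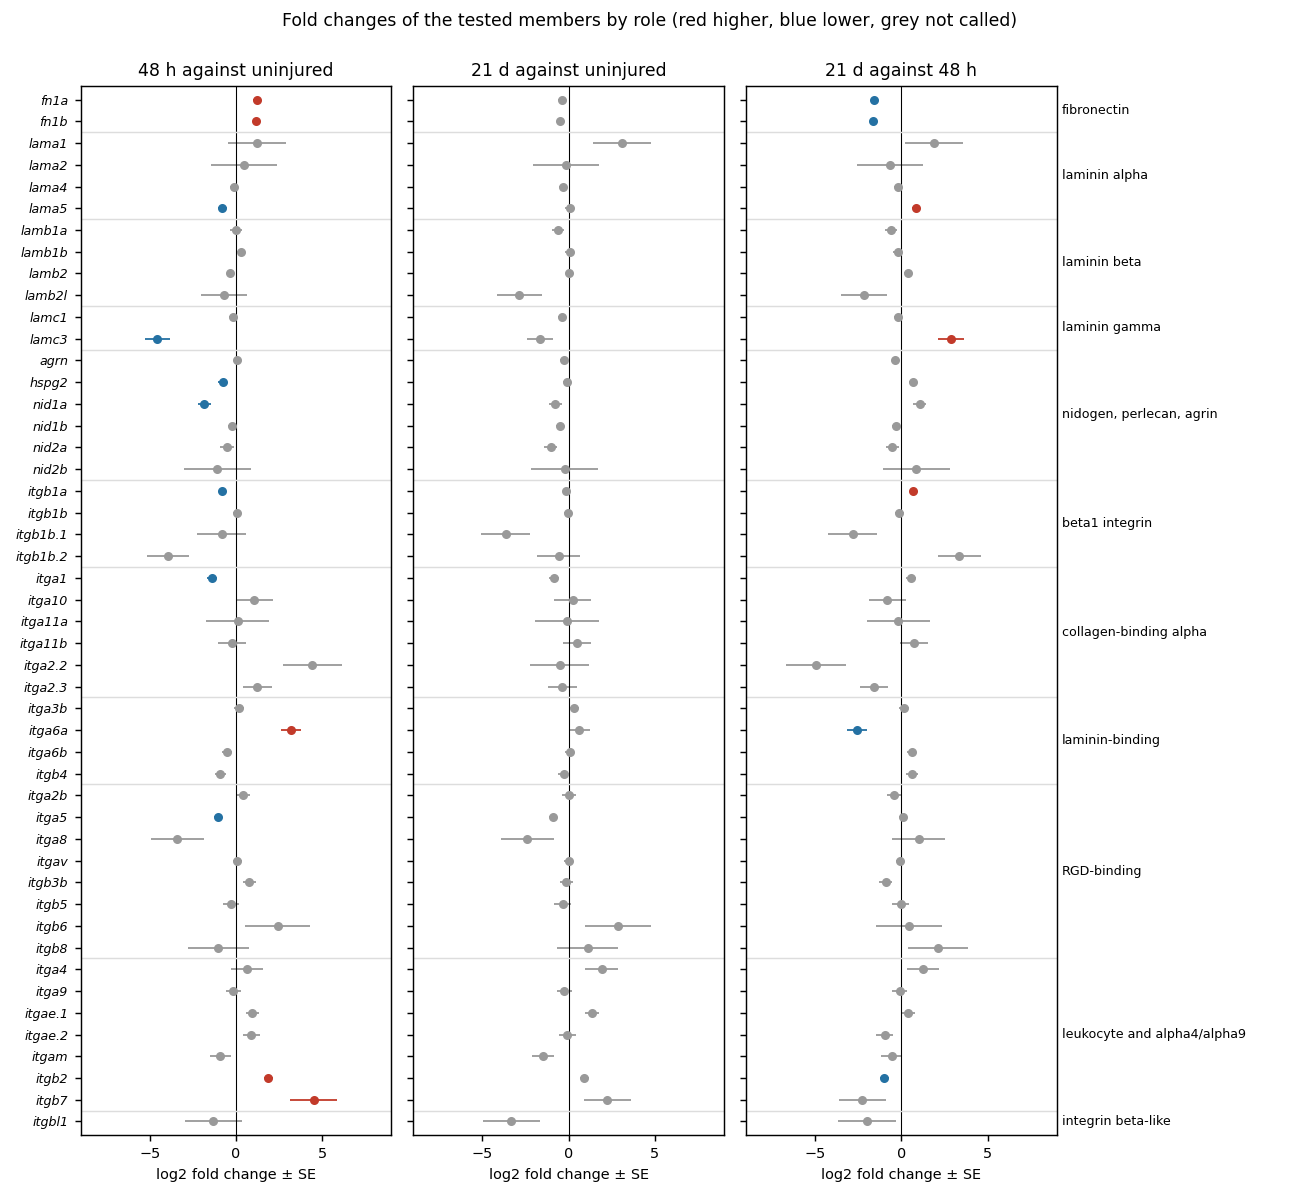
Log2 fold change with its SE for 48 members, grouped by role, in the 3 comparisons (red, higher and called; blue, lower and called; grey, not called at a limma adjusted p under 0.05). Called members stand out at 48 h against uninjured tissue and at 21 d against 48 h, and the widest error bars belong to members with few reads. At 21 d against uninjured tissue 0 were called. In that comparison 12 had an unadjusted p under 0.05, a cut at which the share of all genes was not counted.

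How closely replicates agreed depended on the level. The coefficient of variation within a group had a median of 19.0% over the 16 members with a mean of 1000 or more, 31.7% over the 17 with a mean from 100 to 1000, and 86.9% over the 16 below 100. Of these sets 7, 4 and 2 members were called in at least 1 comparison. Members at 0 in at least 1 library numbered 14, of which 13 had a mean below 100, and 36 of 49 members were called in no comparison.

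Related genes were set against each other within each library, as the difference of their log2 values, for 7 pairs in 3 comparisons. With 3 libraries against 3, the smallest two-sided p of the exact permutation test is 0.1, so no pair could pass, and after Benjamini-Hochberg adjustment over the 21 tests the smallest was 0.21. The log2 ratio of itga6a to itga6b averaged 0.30 ± 0.12 at 48 h and -3.44 ± 1.22 in uninjured tissue (SD, n = 3 each, exact permutation p = 0.1), higher in every 48 h library. The ratio of nid1a to nid1b was lower in every 48 h library, at -3.38 ± 0.85, against -1.76 ± 0.35 in uninjured tissue (exact permutation p = 0.1, n = 3 each). That of itgb1a to itgb1b was 1.36 ± 0.15 at 48 h and 2.23 ± 0.33 in uninjured tissue (exact permutation p = 0.1, n = 3 each). That of fn1a to fn1b was -3.87 ± 0.24 at 48 h and -3.92 ± 0.34 in uninjured tissue (exact permutation p = 0.9, n = 3 each), so the difference was smaller than the spread between libraries. The genes itga6a, nid1a and itgb1a were themselves called at 48 h and their partners were not, so these ratios are no separate support for those calls. How often other gene pairs separate in this way was not counted.

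**Figure D4:**
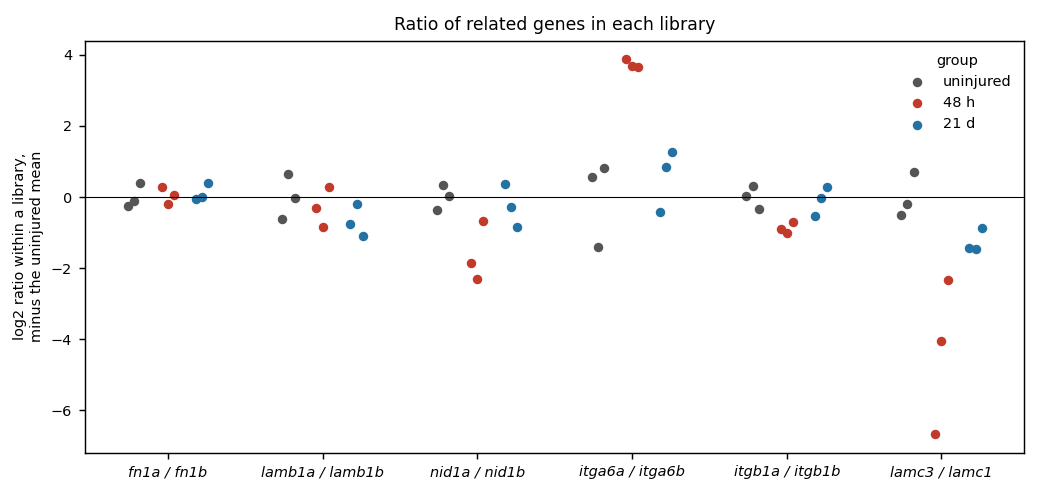
Log2 ratio of 6 pairs of related genes within each library, minus the mean of the uninjured libraries of that pair (points are libraries, 3 in each group). The ratio itga6a to itga6b is higher, and nid1a to nid1b, itgb1a to itgb1b and lamc3 to lamc1 lower, in all 3 libraries at 48 h than in any uninjured library, and fn1a to fn1b overlaps in all groups. The genes itga6a, nid1a, itgb1a and lamc3 were themselves called at 48 h, so these separations are not independent of those calls.

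In a RefSeq annotation of another genome build, used for gene order only, 48 of these genes were found and some of them neighboured each other. No protein-coding gene lies between lamb2 and lamb2l, and itgb1b.2 lies between itgb1b.1 and itgb1b.

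Other genes of the same structures, from lists that do not contain the members, were read from the same fit. Of 31 other basement-membrane genes tested, 7 fell at 48 h and 24 did not pass, with a median log2 fold change of -0.56. Among all genes tested, 4.44% rose and 6.33% fell in that comparison, with a median of 0.01. The matrix protein sparc, which binds collagen, averaged 3996 ± 283 at 48 h and 10337 ± 496 in uninjured tissue (SD, n = 3 each; log2 fold change -1.37, SE 0.16, limma adjusted p = 1.7e-06). Among collagens of vascular basement membranes, col18a1b averaged 477 ± 261 at 48 h and 2221 ± 278 in uninjured tissue (log2 fold change -2.35, limma adjusted p = 6.0e-05), and col15a1b 222 ± 167 at 48 h and 1532 ± 521 in uninjured tissue (-3.01, limma adjusted p = 0.00182). Of the 31, 6 rose at 21 d against 48 h, sparc and col18a1b among them, where 5.48% of all genes tested rose. Against uninjured tissue, 0 of the 31 passed at 21 d by limma, where 1.45% of all genes tested did. At an unadjusted p under 0.05, 3 were higher and 2 lower, a cut at which the share of all genes was not counted.

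Of 34 other secreted ligands of integrins tested, 11 fell and 2 rose at 48 h, with a median of -0.60. Among all genes tested, 6.33% fell and 4.44% rose, with a median of 0.01. The periostin gene postnb averaged 673 ± 184 at 48 h and 3579 ± 403 in uninjured tissue (SD, n = 3 each; log2 fold change -2.44, SE 0.24, limma adjusted p = 1.4e-07). Another ligand, fbln5, an elastic-fibre protein that carries an RGD motif in mammals, averaged 235 ± 121 at 48 h and 3350 ± 895 in uninjured tissue (log2 fold change -3.93, limma adjusted p = 3.3e-07). Of the 34, 3 fell at 21 d against uninjured tissue, namely ccn2b, fbln5 and cyr61, where 1.45% of all genes tested were called. Against 48 h, 8 of the 34 rose and 3 fell at 21 d, where 5.48% of all genes tested rose and 4.4% fell.

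Of 62 tested genes of the intracellular adhesion complex, which ties integrins to actin, 8 rose and 6 fell at 48 h, with a median of 0.26. Among all genes tested, 4.44% rose and 6.33% fell, with a median of 0.01. The actin-elongation factor vaspb averaged 3031 ± 845 at 48 h and 658 ± 64.9 in uninjured tissue (SD, n = 3 each; log2 fold change 2.17, SE 0.24, limma adjusted p = 1.2e-06). Filamin A, flna, an actin cross-linker that binds beta-chain tails, averaged 19104 ± 1981 at 48 h and 8687 ± 377 in uninjured tissue (log2 fold change 1.13, limma adjusted p = 4.0e-05). The adaptor tns1a averaged 2195 ± 600 at 48 h and 5904 ± 1689 in uninjured tissue (log2 fold change -1.43, limma adjusted p = 7.6e-05). Against 48 h, 6 of the 62 rose and 8 fell at 21 d, where 5.48% of all genes tested rose and 4.4% fell. Against uninjured tissue the muscle filamin flncb rose, 1 of the 62, where 1.45% of all genes tested were called. Among 7 cell-surface ligands of leukocyte integrins and junction molecules, vcam1b, a ligand of the alpha4 chain in mammals, fell by 0.81 on the log2 scale at 48 h (SE 0.23, limma adjusted p = 0.0247).

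Over the lists of cell markers at 48 h, 26 of 36 mitosis and replication genes rose, where 4.44% of all genes tested rose and 6.33% fell. Of 20 valve-interstitial markers 12 fell, of 24 heart-muscle markers 13 fell and of 16 smooth-muscle markers 6 fell. Of 24 endothelial markers 6 rose and 2 fell, of 16 valve-endothelial markers 1 rose and 2 fell, of 11 epicardial markers 4 rose and 2 fell, and of 13 red-cell markers 2 fell. Their part in the changes of the members was not tested.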

How the data were processed

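Per the labels' protocols, polyA RNA was selected from 20 ng of total RNA and directional libraries were read as paired 75 bp ends. The submitters' processing notes name FastQC 0.11.8, Trimmomatic 0.33, STAR 2.6.0c, featureCounts 1.6.0, DESeq2 1.18.1 and the build GRCz11. Whether the kit's molecular indexes were used is not given in the sources used here.

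The deposited table holds a signal per gene that behaves as whole read counts which the authors scaled by library size factors and then rounded. On the values, median-of-ratios factors over 13019 genes above 0 in all libraries deviated by at most 0.079%, and size factors read from the spacing of low values ran from 0.851 to 1.398. In 5 libraries the factor is above 1, so rounding merges reads. No count model was therefore fitted, although the plan allowed one for raw counts.

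Values were log2-transformed after adding 1, and the filter kept genes that reached 10 in 3 or more libraries. All 9 libraries entered 1 limma model (version 3.58.1 under R 4.3.3), which left 6 residual degrees of freedom. Variances were moderated robustly along a mean-variance trend, and tests were two-sided, with Benjamini-Hochberg adjustment over 17891 genes and a threshold of 0.05. The model was tested on simulated data with known changes, in 1 data set for each injured group. In each, 100 genes were changed 2-fold and 100 were changed 4-fold, with 17761 genes tested for 48 h and 17710 for 21 d. The changed genes were drawn from those above a minimum mean level. At 48 h against uninjured libraries, it called 14 of 100 genes changed 2-fold and 46 of 100 changed 4-fold, in the right direction. At 21 d against uninjured libraries these numbers were 16 and 52. Among unchanged genes, 0 were called at 48 h and 2 at 21 d. A smaller share of genes was changed in the simulation than was called at 48 h against uninjured tissue (10.8%). The Benjamini-Hochberg cut depends on that share, so recovery in that comparison may differ from these numbers. A member that did not pass may still have changed.

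The members, the lists of other genes and the rule for named genes were chosen with earlier results of these data known. Members called in any comparison and 16 chosen members were to be given for every library, and from each list at most the 3 genes with the smallest adjusted p. The values of 1 member, which is in the counts, are not reported here. Other members given by library were named after their values were seen. The gene itgam is named itgam.2 in the reference table, which matched 20518 of 21692 identifiers. The alternatives changed the scaling (equal column totals, quantile normalization), the pseudocount (0.5, 5), the filter, the variance model or the groups that were fitted, weighted the libraries, added a replicate block or left out each library in turn. Permutation tests went through every split of the libraries, with numpy 2.4.6 in Python 3.11.15.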

Additional observations from a re-analysis of the deposited data

Results flagged for a closer look

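For the members named here, the difference from uninjured tissue was called unequal at the 2 times. The test of it is the comparison of 21 d with 48 h by limma, since both are set against the same uninjured libraries. The effect at 21 d minus that at 48 h was -1.58 for fn1a, -1.64 for fn1b, -2.58 for itga6a and -0.97 for itgb2 on the log2 scale. It was 0.66 for itgb1a, 0.84 for lama5 and 2.89 for lamc3.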

How the results depend on the processing

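Over 147 single-gene results and 20 alternatives, 2925 values were computed, of which 67 lost a call, 25 gained one and 2833 did neither, and no called value changed sign. At 48 h against uninjured tissue, equal column totals gave 4 members lower and a median of 0.14. Leaving out 1 library gave 1382 to 1909 genes called, 9 to 13 members called (4 to 6 higher, 5 to 9 lower) and medians of -0.16 to 0.00. Without a mean-variance trend, 684 genes and 5 members were called (3 higher, 2 lower), with itga2.2, not read as evidence, among the higher. At 21 d against uninjured tissue, 44 genes were called without the trend and 427 with only these groups in the model. Members called, all lower, were 1 with a pseudocount of 5, 2 with no filter and 2 with only these groups. Leaving out 1 library gave 107 to 330 genes and 0 to 1 members (0 to 1 lower), with medians of -0.40 to -0.12. At 21 d against 48 h, equal column totals gave 5 members called, 0 of them higher, and a median of -0.38. Quantile normalization gave 1 member higher. Without the trend, 452 genes and 3 members were called (0 higher, 3 lower), with itga2.2, not read as evidence, among the lower. Leaving out 1 library gave 1144 to 1806 genes and 3 to 8 members (0 to 5 higher, 3 to 5 lower), with medians of -0.22 to -0.01. The cause of these shifts was not tested. Same-numbered libraries of different groups showed no shared deviation: their deviations from the group means had correlations from -0.02 to 0.03. These values cannot show whether such libraries were handled together. A replicate block gave 14, 0 and 8 members called and 1918, 239 and 1710 genes in the 3 comparisons.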
